A study of Arabidopsis thaliana with 6 samples.

Results

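The genes described are 10 enzyme genes of the general phenylpropanoid pathway and of lignin synthesis, taken by gene identifier from a table of read counts for 24267 genes. They are PAL1 (AT2G37040), PAL2 (AT3G53260), PAL4 (AT3G10340), C4H (AT2G30490), 4CL1 (AT1G51680), 4CL2 (AT3G21240), CCR1 (AT1G15950), CAD5 (AT4G34230), CCoAOMT1 (AT4G34050) and F5H1 (AT4G36220, also named FAH1). The genes were named by their role in the pathway, with earlier results of these data known, and all 10 had enough counts to be tested.

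The libraries came from wild-type Arabidopsis thaliana of the Columbia accession. Seedlings that were 4 days old were moved to Murashige and Skoog plates that held 1 nM of the auxin indole-3-acetic acid (IAA), 10 nM melatonin (MT), or the solvent alone as control, and were sampled after 72 h. The control had ethanol at a final 0.1%, although the sample titles call it untreated. The medium of all plates held 3% sucrose, and plants grew at 23 °C with 16 h of light. Each group had 2 libraries, of 35953236 to 46076624 counts, and nothing in the sources used here says that those 2 came from separate cultures. The p-values therefore measure the spread between these libraries, which may be technical. The labels give seedlings as tissue while the design text of the series names rosette leaves. All 30 marker genes of leaf mesophyll, xylem, endodermis, root hairs and root tip had counts in every library, so both leaf and root transcripts were present.

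The general phenylpropanoid pathway turns phenylalanine into activated hydroxycinnamic acids. Phenylalanine ammonia-lyase (PAL) removes the amino group, cinnamate 4-hydroxylase (C4H) adds a hydroxyl to the ring, and 4-coumarate:CoA ligase (4CL) attaches coenzyme A. From there carbon flows to flavonoids, to coumarins, to sinapate esters that shield leaves from ultraviolet light, and to the monolignols that are polymerised into lignin in xylem walls and in the Casparian strip of the root endodermis. The RNA came from bulk tissue, so fewer cells of a type and less RNA per cell cannot be told apart.

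F5H1 was the member that rose with MT. It encodes ferulate 5-hydroxylase, the cytochrome P450 that leads to syringyl lignin and to sinapate. Levels are given as CPM, the count relative to the library size after TMM scaling. F5H1 had 62.4 and 72.9 CPM in the controls, 83.6 and 80.5 under IAA, and 137 and 144 under MT. Both MT libraries stood above all 4 others, and both IAA libraries above both controls. MT against control gave a log2 fold change of 1.05 ± 0.09 (SE, 95% interval 0.83 to 1.28; adjusted p = 0.00404 over all genes, edgeR). The means were 67.6 ± 7.38 CPM in the control and 140.2 ± 5.15 with MT (SD, n = 2 each).

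With MT 1 of 10 members rose, 0 fell and 9 did not pass. Of all 21355 genes tested 3.99% rose and 3.65% fell, so 1 of 10 is near the share of all genes called, 7.65%. Of the 10, 4 had an unadjusted p under 0.05 in this comparison, beside 25.2% of all genes. The median log2 fold change of the 10 was 0.24 and that of all genes tested 0.002. With IAA against control 0 of 10 members passed in edgeR's test, where 0.332% of all genes did (0.272% higher and 0.0609% lower). Of the 10, 3 had an unadjusted p under 0.05 (14.3% of all genes had one), and DESeq2 also called 0. Their median was 0.14, beside 0.0004 over all genes.

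**Figure D1:**
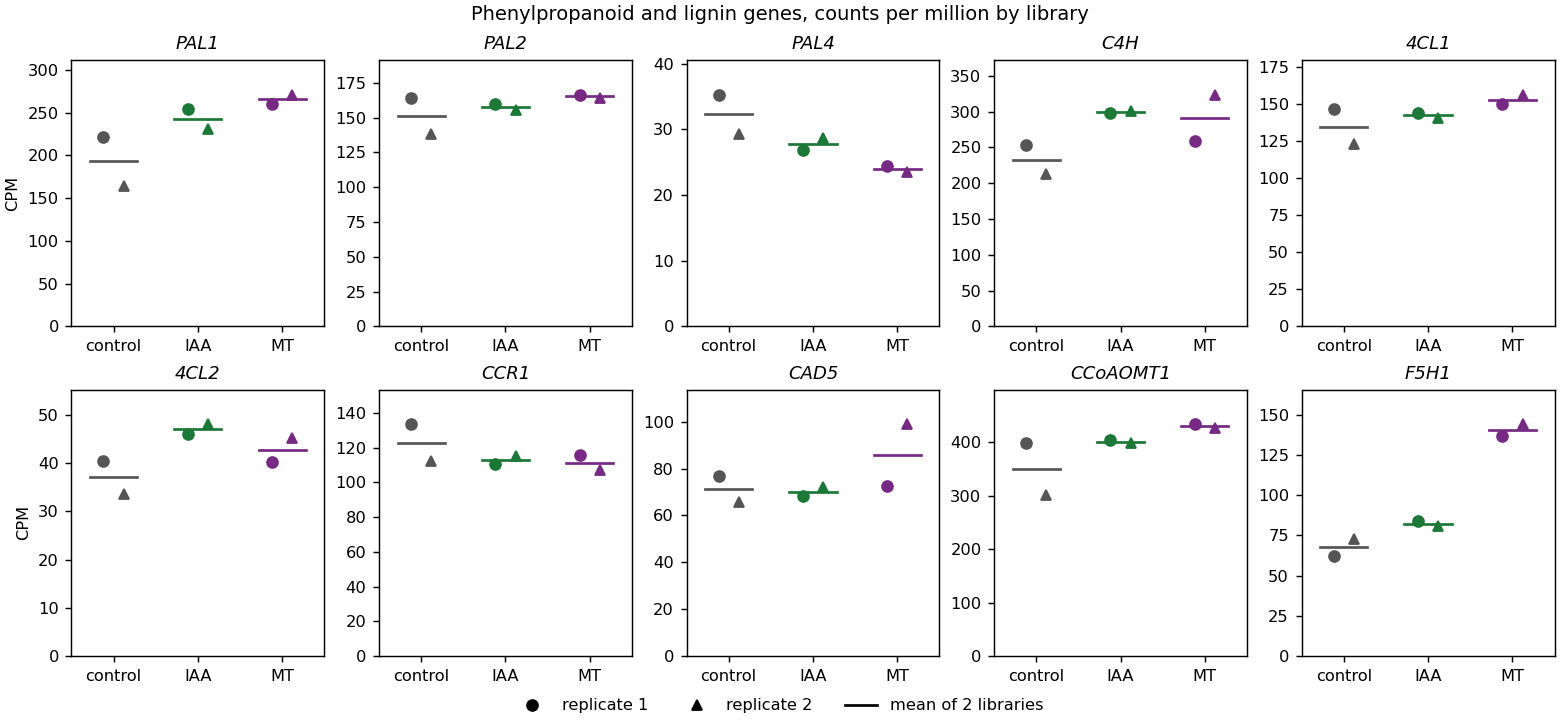
Level of each of the 10 genes in the 6 libraries, in CPM on linear axes from 0, with circles for replicate 1, triangles for replicate 2 and a line at the mean of 2 libraries. F5H1 stood at 137 and 144 CPM with MT against 62.4 and 72.9 in the control, while the control libraries of CCoAOMT1 and PAL1 lay far apart.

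Among the members that open the pathway, PAL1, one of the main PAL genes of Arabidopsis, had 222 and 165 CPM in the control, 254 and 231 with IAA, and 260.4 and 271 with MT. The treated libraries lay above both controls, while the controls differed from each other by more than the libraries of either other group did. Its log2 fold change with MT was 0.46 ± 0.14 (adjusted p = 0.105, edgeR), and it had 0.26 without control replicate 2 and 0.69 without control replicate 1. DESeq2 called it with MT (adjusted p = 0.0145). With IAA it had 0.33 ± 0.14 (adjusted p = 0.372, edgeR).

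PAL2, the other main PAL gene, had 164 and 138 CPM in the control, 159.7 and 155 with IAA, and 166 and 164 with MT. Its 95% interval for MT against control ran from -0.11 to 0.36 on the log2 scale, so a change of the size seen for F5H1 lay outside it. PAL4, a lower expressed copy, went the other way, with 35.2 and 29.3 CPM in the control, 26.9 and 28.7 with IAA, and 24.4 and 23.5 with MT. Its MT libraries were the lowest and its controls the highest, without overlap. MT against control gave -0.43 ± 0.11 (adjusted p = 0.0647, edgeR), which passed with robust empirical Bayes (adjusted p = 0.0488) and in DESeq2 (adjusted p = 0.0235).

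Within the PAL family the members' levels were compared per kilobase of exon, since the genes differ in length. PAL1 made up 48.5% and 45.1% of the summed CPM per kilobase of the 4 PAL genes in the control, 54.0% and 51.8% with IAA, and 54.0% and 55.5% with MT. The share of PAL4 was 8.31% and 8.65% in the control, 6.17% and 6.92% with IAA, and 5.46% and 5.18% with MT. PAL2 held 36.5% and 38.5% in the control, 34.5% and 35.4% with IAA, and 35.0% and 34.2% with MT. The shares of all 4 genes thus did not overlap between control and either treatment, going up for PAL1 and down for the others. With 2 libraries per group this is common. The levels of 48.4% of all genes did not overlap between IAA and control, and 55.5% between MT and control. Both comparisons also share the control libraries. For PAL2 the share alone went down, since its level overlapped the control with IAA and was not lower with MT. Shares add up to a fixed total, so a higher share of PAL1 lowers the rest. PAL3 (AT5G04230), the copy outside the 10, held 6.70% and 7.69% in the control, 5.32% and 5.87% with IAA, and 5.50% and 5.04% with MT. Its log2 fold change with MT was -0.20 ± 0.10 (adjusted p = 0.260, edgeR). No test was run on the shares. How reads that match more than 1 copy were counted is not stated, so the split between paralogs is uncertain.

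**Figure D2:**
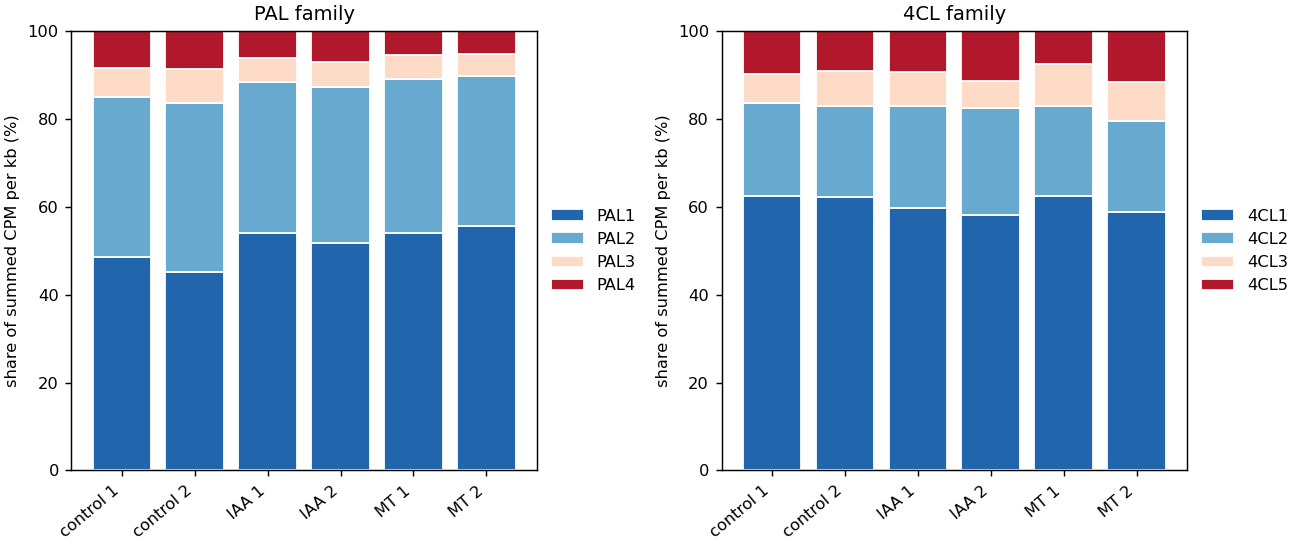
Share of each gene in the summed CPM per kilobase of exon (%) of the PAL family (left) and the 4CL family (right), 1 stacked bar for each library. PAL1 held 45.1% to 48.5% in the control libraries and 51.8% to 55.5% in the treated ones, while 4CL1 held 58.2% to 62.5% in all 6.

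C4H, a P450 enzyme encoded by a single gene, had 254 and 213 CPM in the control, 298 and 300.2 with IAA, and 259.6 and 323 with MT. Both treated groups lay above the control, but the MT libraries were far apart and enclosed the IAA libraries. It had 0.36 ± 0.13 with IAA (adjusted p = 0.305) and 0.32 ± 0.13 with MT (adjusted p = 0.194, both edgeR). Of the ligases, 4CL1 had 147 and 123 CPM in the control, 144 and 141 with IAA, and 149.7 and 156 with MT. Its control libraries enclosed the IAA libraries, and its interval for MT against control was -0.06 to 0.42. Because 4CL1 and CCR1 overlap other gene models and strand was not stated, their counts can hold reads of a neighbour.

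4CL2 had 40.5 and 33.6 CPM in the control, 46.1 and 48.0 with IAA, and 40.3 and 45.3 with MT. Its IAA libraries were above all others. It had 0.34 ± 0.11 with IAA, an unadjusted p of 0.0184 and an adjusted p of 0.262 in edgeR. 4CL3 (AT1G65060), the ligase tied to flavonoid synthesis, had 0.55 ± 0.14 with MT (adjusted p = 0.0589, edgeR) and was called in 4 of 12 alternatives, DESeq2 among them (adjusted p = 0.0118). 4CL5 (AT3G21230) had 0.26 ± 0.26 with MT (adjusted p = 0.579).

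Among the enzymes that commit carbon to monolignols, CCoAOMT1, which methylates caffeoyl-CoA, had 398 and 302 CPM in the control, 404 and 399 with IAA, and 433 and 427 with MT. Control replicate 2 was far below the other 5 libraries. MT against control gave 0.30 ± 0.13 (adjusted p = 0.221, edgeR), with 0.11 without control replicate 2 and 0.51 without control replicate 1. CCR1, the cinnamoyl-CoA reductase that starts the branch to lignin, had 133 and 112 CPM in the control, 110.4 and 115 with IAA, and 116 and 107 with MT. The 3 groups overlapped, and the interval for MT against control was -0.39 to 0.10. CAD5, a main cinnamyl alcohol dehydrogenase of the last step to monolignols, had 76.7 and 65.6 CPM in the control, 68.1 and 72.0 with IAA, and 72.7 and 98.8 with MT. MT replicate 2 alone stood above the rest. MT against control gave 0.27 ± 0.15 (adjusted p = 0.318, edgeR), and 0.04 without MT replicate 2.

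Taken by library, 9 of the 10 members, F5H1 being the exception, were higher in control replicate 1 than in control replicate 2, and 7 had their lowest value of the 6 libraries in control replicate 2. The summed level of the 10 was 1532 and 1253 CPM in the control, 1594 and 1571 with IAA, and 1659 and 1759 with MT. The libraries of MT and control did not overlap for 7 of 10 members, 6 higher and 1 lower, where 55.5% of all genes tested did not overlap (27.8% higher and 27.7% lower). For IAA and control it was 6 of 10, with 5 higher and 1 lower, beside 48.4% of all genes (23.6% higher and 24.8% lower). The counts of 7 and 6 of 10 are near the shares over all genes, and the 2 comparisons share the control libraries. More members were higher than lower in both, but some margins were small. For PAL2 the lower MT library had 164.3 CPM and the higher control library 164.2. The directions are thus a description only.

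**Figure D3:**
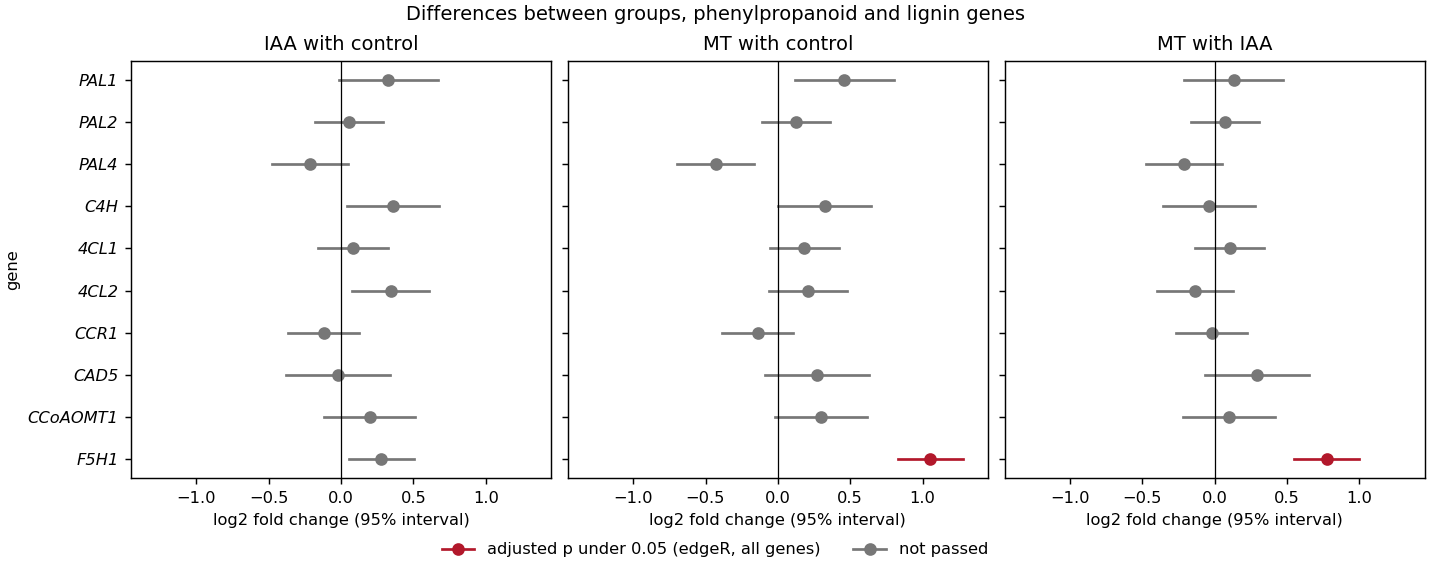
Log2 fold change of the 10 genes in 3 comparisons, with bars for 95% intervals from edgeR's quasi-likelihood fit and red for an adjusted p under 0.05 over all genes. With MT against control the interval of F5H1, 0.83 to 1.28, lay above those of the 9 others, the highest of which ended at 0.80.

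MT and IAA are both indoles, and their doses were not the same, 10 nM and 1 nM, so this comparison sets these 2 treatments side by side rather than the compounds at a matched dose. F5H1 was higher with MT than with IAA by 0.77 ± 0.09 (interval 0.55 to 1.00, adjusted p = 0.0498, edgeR). It was 1 of 10 members called, and the 1 with an unadjusted p under 0.05. Of all genes 0.173% were called, 0.089% higher and 0.0843% lower with MT, and 17.4% had an unadjusted p under 0.05. The call was near the threshold and was lost in 7 of 12 alternatives, with adjusted p from 0.0629 to 0.227, while the log2 fold change stayed between 0.73 and 0.81. The other 9 members had -0.21 to 0.29 and adjusted p of 0.376 to 0.945, with intervals that ended at or below 0.65. The libraries did not overlap for 8 of 10 members, 6 higher and 2 lower with MT, beside 50.4% of all genes (24.3% higher and 26.1% lower).

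Per kilobase of exon, CCoAOMT1 had the highest level of the 10 in the control, 226 ± 43.9 CPM per kilobase (SD, n = 2), followed by C4H with 112 ± 13.9. PAL1 (65.9 ± 13.7) and CCR1 (62.7 ± 7.66) came next and did not differ beyond their spread. Then followed 4CL1 (52.6 ± 6.61) and PAL2 (52.4 ± 6.31). Neither differed beyond the spread from the other, from PAL1 and CCR1, or from CAD5, so the order among these genes is uncertain. CAD5 had 43.9 ± 4.87, F5H1 34.0 ± 3.71, 4CL2 17.7 ± 2.34 and PAL4 11.9 ± 1.54. F5H1 was at position 8 of 10 in the control and with IAA (41.2 ± 1.09, next to CAD5 with 43.3 ± 1.70). With MT it was at position 4, with 70.4 ± 2.58, between PAL1 (90.6 ± 2.48) and 4CL1 (59.8 ± 1.76). CCoAOMT1, C4H and PAL1 held positions 1 to 3 in each group.

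Beyond the 10, a list of 88 other genes of the pathway and its branches was examined, of which 82 were tested. With MT 7 rose, 6 fell and 69 did not pass, so 15.9% were called, beside 7.65% of all genes. The list was drawn up with earlier results of these data known, so its share is a description. With IAA 1 rose, 0 fell and 81 did not pass, or 1.22% beside 0.332% of all genes. Of the 13 called with MT, UGT84A2 and KFB01 passed under every alternative tried. The other 11 lost the call under at least 1, with adjusted p reaching 0.0696 to 0.197.

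Around sinapate, the product downstream of F5H1, genes went both ways with MT. UGT84A2 (AT3G21560), which joins sinapate to glucose, had 27.4 and 29.5 CPM in the control, 35.5 and 32.5 with IAA, and 49.3 and 46.1 with MT. Like F5H1 it was highest in both MT libraries, and it rose by 0.75 ± 0.09 (adjusted p = 0.00740, edgeR). UGT84A1 (AT4G15480), a glucosyltransferase for hydroxycinnamic acids, rose by 2.12 ± 0.41 (adjusted p = 0.0295) from a level of only 0.363 and 0.321 CPM to 1.90 and 1.12 CPM. It overlaps another gene model. SNG1 (AT2G22990), which moves sinapate from glucose to malate, fell, with 236 and 262 CPM in the control, 172 and 191 with IAA, and 178 and 142 with MT (-0.64 ± 0.13, adjusted p = 0.0337, edgeR). The list of monolignol glucosides, sinapate esters and coumarins had 2 risen, 1 fallen and 6 not passed of 9 tested. Its median was 0.06, and among all genes 3.99% rose and 3.65% fell. The coumarin gene F6'H1 (AT3G13610) had 0.41 ± 0.16 with MT (adjusted p = 0.165).

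**Figure D4:**
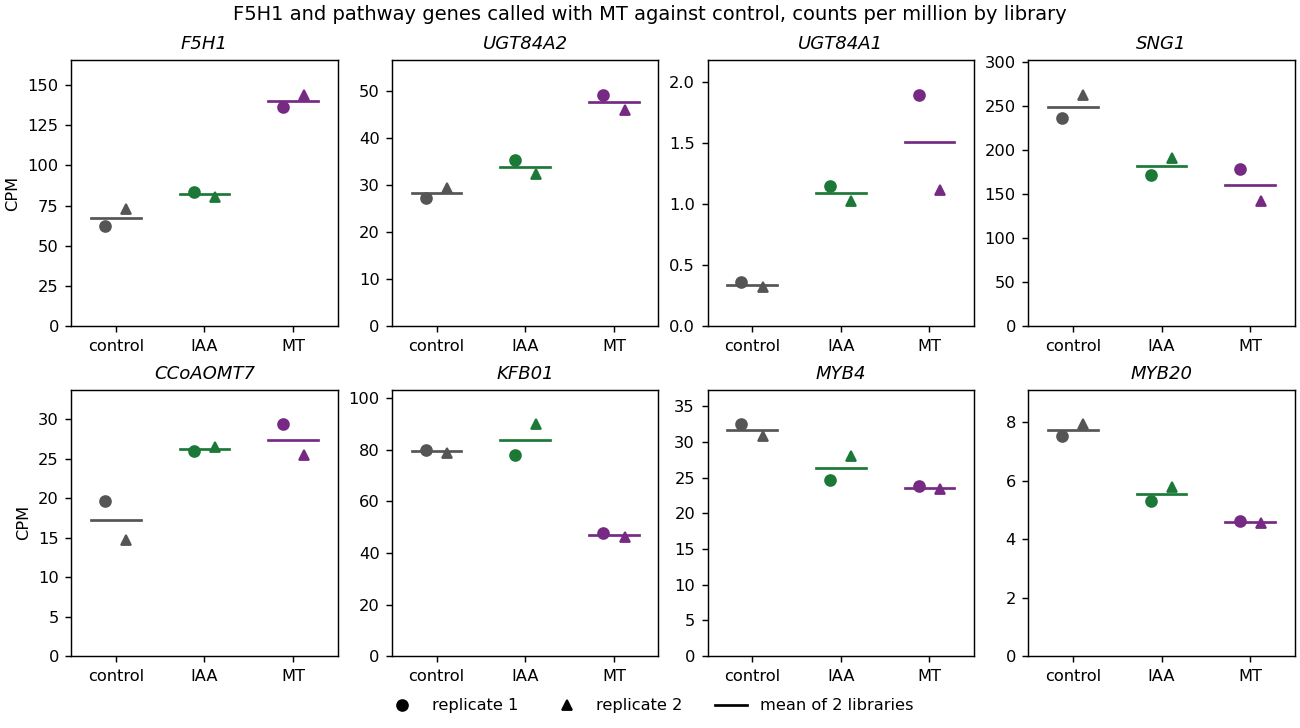
Level of F5H1 and of 7 pathway genes called with MT against control in the 6 libraries, in CPM on linear axes from 0, with circles for replicate 1, triangles for replicate 2 and a line at the mean of 2 libraries. UGT84A2 stood at 49.3 and 46.1 CPM with MT, above the other libraries, and KFB01 at 47.7 and 46.3 CPM, below them.

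KFB01 (AT1G15670) encodes a Kelch-repeat F-box protein that marks PAL proteins for degradation. It fell with MT, from 80.0 and 78.9 CPM in the control to 47.7 and 46.3 (-0.76 ± 0.09, adjusted p = 0.00664, edgeR). With IAA it had 77.9 and 89.8 CPM, and MT against IAA gave -0.83 ± 0.09 (adjusted p = 0.0455, edgeR), a call that was lost with the replicate number as a block (adjusted p = 0.0587) and in 6 other alternatives. Its relatives with the same role did not pass with MT: KFB50 (AT3G59940) had -0.06 ± 0.11 and KFB20 (AT1G80440) 0.80 ± 0.26 (adjusted p = 0.115), with 220.1 CPM in MT replicate 1 and 121 in replicate 2. The controls of KFB20 had 98.3 and 97.7 CPM, so its fold change rested largely on MT replicate 1. KFB39 (AT2G44130) had 9 counts in a single library and was not tested.

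Of 15 transcriptional regulators tested, 0 rose and 2 fell with MT, where 3.99% of all genes rose and 3.65% fell. MYB4 (AT4G38620), a repressor of C4H, had 32.5 and 30.8 CPM in the control, 24.6 and 28.1 with IAA, and 23.8 and 23.4 with MT (-0.42 ± 0.10, adjusted p = 0.0486, edgeR). MYB20 (AT1G66230), an activator of lignin and phenylalanine genes in secondary walls, went from 7.52 and 7.93 CPM to 4.61 and 4.56 (-0.75 ± 0.15, adjusted p = 0.0329). Both calls were lost when any 1 of the 6 libraries was left out, with adjusted p from 0.0647 to 0.186. The lignin activators MYB58 (AT1G16490) and MYB63 (AT1G79180) had 0.20 ± 0.37 and -0.06 ± 0.31, at levels of 0.783 to 1.34 CPM and 1.75 to 4.16 CPM.

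Of 19 other monolignol enzymes tested, 2 rose and 1 fell with MT, with a median of 0.13. Among all genes 3.99% rose and 3.65% fell. CCoAOMT7 (AT4G26220), a relative of CCoAOMT1, rose by 0.67 ± 0.15 (adjusted p = 0.0459) and CAD7 (AT4G37980) by 0.39 ± 0.08 (adjusted p = 0.0311), while CAD1 (AT1G72680) had -0.68 ± 0.13 (adjusted p = 0.0246) and fell. COMT1 (AT5G54160), the methyltransferase that acts next to F5H1 on the way to syringyl units, had 225 and 213 CPM in the control, 261 and 265 with IAA, and 269 and 283 with MT. Both treated groups lay above the control, with 0.33 ± 0.08 for MT (adjusted p = 0.0570, edgeR), called by DESeq2 (adjusted p = 0.00078) and with robust empirical Bayes (adjusted p = 0.0465). Of the enzymes of the shikimate ester route, which did not pass, HCT (AT5G48930) had 0.07 ± 0.10, CYP98A3 (AT2G40890) -0.11 ± 0.12 and CSE (AT1G52760) 0.11 ± 0.10. CCR2 (AT1G80820) had -0.22 ± 0.18 and CAD4 (AT3G19450), the partner of CAD5 in lignin, 0.28 ± 0.12 (adjusted p = 0.218).

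At the supply end, 1 of 19 genes of the shikimate pathway and phenylalanine synthesis rose with MT and 0 fell. Among all genes 3.99% rose and 3.65% fell. Lists such as these are short and no set test was run, so their counts are a description only. DHS1 (AT4G39980), whose enzyme opens the shikimate pathway, had 0.37 ± 0.09 (adjusted p = 0.0492, edgeR) and lost the call when any 1 library was left out. In the flavonoid branch 1 of 4 rose with MT, F3H (AT3G51240, 0.49 ± 0.10, adjusted p = 0.0307), a call that did not hold under every alternative. With IAA 0 passed, beside 0.332% of all genes. F3H and CHS each overlap another gene model. F3H had 52.0 and 44.0 CPM in the control, 70.9 and 68.5 with IAA, and 69.1 and 65.5 with MT. The median log2 fold change of the 4 was 0.55 with MT and 0.48 with IAA, each against control. For MT against IAA the median was 0.008, so the 2 treatments gave much the same levels in this branch. CHS (AT5G13930), the entry enzyme that uses the product of 4CL, had 0.35 ± 0.12 (adjusted p = 0.136, edgeR) and was called by DESeq2 (adjusted p = 0.0358).

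Of 13 genes of lignin polymerisation and monolignol transport, PRX2 (AT1G05250), a root peroxidase, was the gene that rose with IAA, from 33.8 and 28.4 to 65.7 and 63.9 CPM (1.06 ± 0.10, adjusted p = 0.0217, edgeR). A near-identical peroxidase gene exists, so its counts are uncertain. Its call with IAA was lost without either IAA library (adjusted p up to 0.0905). It also rose with MT, to 47.1 and 46.5 CPM (0.59 ± 0.10, adjusted p = 0.0178). The 2 comparisons share the control libraries. PRX64 (AT5G42180), a peroxidase of the Casparian strip, fell with MT from 37.6 and 29.5 to 21.8 and 19.7 CPM (-0.69 ± 0.13, adjusted p = 0.0284). It overlaps another gene model. The summed level of 7 endodermis markers moved with it, at 140.0 and 113 CPM in the control, 139 and 131 with IAA, and 103 and 101 with MT. Of the 7, CASP5, a Casparian strip membrane protein, fell with MT (-1.27 ± 0.21, adjusted p = 0.0182, edgeR), beside 3.65% of all genes. CASP5 overlaps another gene model. Of the 7, 6 had a log2 fold change below 0 (median -0.54). Calls of marker genes, here and below, were not checked under the alternatives. With MT against IAA all 7 had a log2 fold change below 0, with a median of -0.66 and adjusted p of 0.0986 or more in edgeR. The part of these markers in the result was not tested.

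The summed level of 9 markers of xylem and secondary walls was 157 and 143 CPM in the control, 178 and 159.6 with IAA, and 148 and 170.0 with MT, and 0 of the 9 were called with MT or IAA. The 7 mesophyll markers summed to 22787 and 23605 CPM in the control, 18385 and 17668 with IAA, and 22381 and 19991 with MT. RBCS1A and RCA, both of carbon fixation, held most of that sum. Of the 7, 4 rose with MT (LHCB2.2, LHCB3, LHCA4 and PSAF, all of the photosystems), beside 3.99% of all genes, and the median log2 fold change was 0.42. With IAA 1 rose (LHCB3, 0.70 ± 0.09, adjusted p = 0.0414, edgeR), beside 0.272% of all genes, and the median was 0.002. The 4 root hair and root epidermis markers summed to 98.8 and 67.1 CPM in the control, 106 and 106 with IAA, and 76.8 and 72.5 with MT. The 3 root tip markers summed to 6.46 and 3.75 CPM in the control, 8.41 and 8.51 with IAA, and 7.58 and 8.21 with MT. All 3 had a log2 fold change above 0 with MT (median 0.61), and 0 were called. Control replicate 2 was the lowest of the 6 libraries for the root hair, root tip and xylem sums, as it was for 7 of the 10 members. The endodermis sum was lowest in MT replicate 2. The part of tissue proportions in the members' values was not tested.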

How the data were processed

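The authors deposited 1 table of raw read counts per gene, 1 column for each of the 6 libraries, per the file headers. Per the submitters' processing notes the tools were HTSeq 0.6.1, TopHat2 2.0.12, DESeq 1.18.0 and Bowtie2 2.2.3; settings are not stated there. The genome build, annotation and strand setting are likewise not stated. For that reason coordinates and sequences are left out, and promoter motifs were not analysed here. TAIR10.1 (RefSeq) served for symbols, overlaps between gene models and exon lengths; 13 of the 88 pathway symbols were not paired with their identifier there, which then decided.

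Counts were analysed with edgeR 4.0.16 in R 4.3.3: filterByExpr by group kept 21355 genes, and a quasi-likelihood model with TMM factors was fitted to the 6 libraries together, with group as its single term and 3 residual degrees of freedom. The Benjamini-Hochberg adjustment covered every gene tested, with 0.05 as threshold, and an adjusted p with no tool beside it comes from edgeR. SE is the log2 fold change divided by the root of the F statistic, and 95% intervals use the t quantile of the test's degrees of freedom. CPM were computed from the counts with TMM-scaled library sizes. Total counts per library were 35953236 to 46076624. Replicates differed beyond counting noise (chi-square over degrees of freedom 25.6 to 32.8), so each library was counted as 1 sample. The script was tested on simulated data. Alternatives were relative log expression factors, no filter, DESeq2 1.42.0, robust empirical Bayes, the replicate number as a block, only the libraries compared, and leaving out each library.

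The members, the pathway and marker lists and the tests were chosen with earlier results of these data known. Named genes were all 10 members, pathway genes called in any comparison, and 20 listed ones given called or not. Of these, CYP84A4 (AT5G04330, no counts in 2 libraries) and KFB39 (not tested) are given as counts only and entered no alternative. Likeness used log2 of CPM plus 0.5. No set test was run.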

Additional observations from a re-analysis of the deposited data

How the results depend on the processing

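F5H1 was called with MT against control in all 12 alternatives (log2 fold change 0.94 to 1.17, highest adjusted p 0.0237). Members called with MT against control were 3 with DESeq2 and 2 with robust empirical Bayes. The latter added PAL4, close to the threshold (adjusted p = 0.0488, edgeR). Robust empirical Bayes also called more of all genes in the other 2 comparisons, as given below, so this count is a description only. DESeq2 also called more of all genes, 2905 against 1633, so its higher count is not particular to the members. Members called with MT against IAA were 0 with the replicate block and 0 with only the libraries compared, and 0 to 1 with a library left out. All genes called with IAA against control were 768 with DESeq2, 130 with robust empirical Bayes, 125 with only the libraries compared, and 15 to 113 with a library left out, against 71. With MT against control they were 2905 with DESeq2 and 493 to 1300 with a library left out, against 1633. With MT against IAA they were 76 without a filter, 1225 with DESeq2, 142 with robust empirical Bayes, 12 with the replicate block, 6 with only the libraries compared, and 6 to 340 with a library left out, against 37. Log2 fold changes that changed sign, none of them called, did so with a library left out. Their ranges with IAA against control were -0.056 to 0.19 for PAL2, -0.038 to 0.22 for 4CL1, -0.24 to 0.011 for CCR1 and -0.13 to 0.097 for CAD5. With MT against IAA they were -0.21 to 0.11 for C4H and -0.082 to 0.035 for CCR1. With MT against control they were -0.17 to 0.61 for 4CL5, -0.044 to 0.20 for HCT, -0.28 to 0.077 for CYP98A3, -0.010 to 0.25 for CSE, -0.13 to 0.64 for MYB58, -0.34 to 0.26 for MYB63 and -0.20 to 0.077 for KFB50. The cause of these changes was not tested.

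Replicate numbers showed no sign of pairing the samples: same-numbered libraries deviated together with r of 0.007 to 0.079 across genes. The labels do not say whether the samples were paired, and a low r cannot exclude it. Under the replicate block the calls of F5H1 and KFB01 with MT against IAA and of DHS1, SNG1, MYB4 and MYB20 with MT against control were lost (adjusted p 0.0531 to 0.0799). The estimate of spread rests on 3 residual degrees of freedom. The cause of the calls lost or gained under the alternatives was not tested.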

Other observations

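CYP84A4 (AT5G04330), a P450 gene of the same family as F5H1, had 52 and 0 counts in the control, 45 and 42 with IAA, and 0 and 41 with MT, so that 2 libraries of different groups held none. It overlaps another gene model, and no fold change is given.

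Over the 6 libraries, the genes whose level followed the mean centred profile of the 10 members most closely, among 13327 others with a mean of at least 10 CPM, were WDR55 (AT2G34260, Pearson r = 0.994), AT1G55210 (0.991), P58IPK (AT5G03160, 0.985), TPR9 (AT1G33400, 0.984) and BGAL17 (AT1G72990, 0.983). The 6 points share libraries and group differences, and the highest of 13327 correlations over 6 points is high in any case, so this is a description only.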
